A study of Drosophila melanogaster with 12 samples.

Results

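The mitochondrial ribosomal proteins are encoded in the nucleus, made in the cytosol and imported into mitochondria, where they assemble with mitochondrial rRNA into a large and a small subunit. These ribosomes translate only the few proteins encoded by the mitochondrial genome, all of them subunits of the respiratory chain and of ATP synthase. Some of the proteins descend from bacterial ribosomal proteins and keep their numbers, and others are found in mitochondria alone. Malpighian tubules, the excretory organ of insects, move ions with an apical proton pump and are rich in mitochondria. The genes described here are those whose FlyBase symbol begins with mRpL (large subunit) or mRpS (small subunit). There were 73 of them among the 13919 genes counted, 47 named for the large and 26 for the small subunit. The subunit is taken from the symbol throughout and was not checked against the structure of the ribosome. By number, 28 large and 14 small subunit proteins share the bacterial series, and 19 large and 12 small subunit proteins lie above it. Of the genes, 71 were matched by their FlyBase identifier, and mRpS5 and mRpS34 through their CG number. The small subunit genes tko and bonsai carry other symbols and are outside this definition.

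RNA was sequenced from the Malpighian tubules of Drosophila melanogaster females aged 6 days, kept at 20 °C on cornmeal-molasses food in a cycle of 14 h light and 10 h dark. The parental lines were SU26 and SU58, both from Sweden, and ZI418N from Zambia, which the sample titles write as crosses within a line (SU26xSU26). Crosses between the lines gave 3 F1 hybrids: SU26xSU58, SU58xZI418N and SU26xZI418N. For all 6 genotypes there were 2 libraries, which the design text calls biological replicates. The labels do not say whether these came from separate cultures or how many flies were pooled, so p-values measure the spread between these libraries, which may be partly technical, and each country is represented by 1 line or by 2.

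Summed gene counts per library ranged from 30834175 to 43479929, and the mitochondrial ribosomal protein genes took 40823 to 59603 of them. All 73 genes passed the filter on low counts that left 9302 genes for testing, and the lowest count of any of them in a library was 131. Levels are given in CPM (counts scaled to a common library size with TMM factors) or, to compare genes with each other, in RPKM, which also divides by gene length. Most tubule markers were abundant: the sum of 6 principal cell markers was 10690 and 10010 CPM in the SU26 libraries and 3990 to 6147 CPM in the others, and that of 6 stellate cell markers was 876 to 1464 CPM. Uro and salt made up most of the principal cell sum in each library, and byn of that list was at most 0.29 CPM. The sum of 16 markers of the female germ line and eggshell was 352 CPM in SU58 replicate 1 and 709.9 CPM in SU26xZI418N replicate 2, against 4.90 to 37.2 CPM elsewhere. A sum of 7 fat body markers ranged from 177 CPM in SU26 replicate 2 to 1124 CPM in ZI418N replicate 2. No marker of these 4 lists was at 0 in all libraries. In whole tubules, fewer cells of a type and less RNA per cell cannot be told apart.

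The 73 genes were transcribed at moderate and similar levels. Their median was 17.3 RPKM, with 17.3 RPKM for the large and 16.7 RPKM for the small subunit, and 63 of 73 lay within 2-fold of the median of all 73. In CPM their median was 13.4, against 15.1 over all tested genes. The highest were mRpS5 with a mean of 75.4 RPKM over the 12 libraries (range 52.5 to 99.7) and mRpL28 with 74.5 RPKM (range 61.7 to 99.9). mRpL35 followed with 46.5 RPKM (range 39.5 to 51.5). mRpS5 is the counterpart of bacterial S5, which lies where mRNA enters the small subunit, and mRpL28 and mRpL35 are counterparts of bacterial L28 and L35. The ranges of mRpS5 and mRpL28 overlapped almost entirely, and that of mRpL35 lay below that of mRpL28. The lowest were mRpL21 with 6.85 RPKM (range 4.76 to 8.18), mRpL16 with 8.04 RPKM (range 6.82 to 8.62) and mRpS10 with 8.60 RPKM (range 7.09 to 11.97), whose ranges overlapped. Bacterial L16 lies near the peptidyl transferase centre, where peptide bonds are made.

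**Figure D1:**
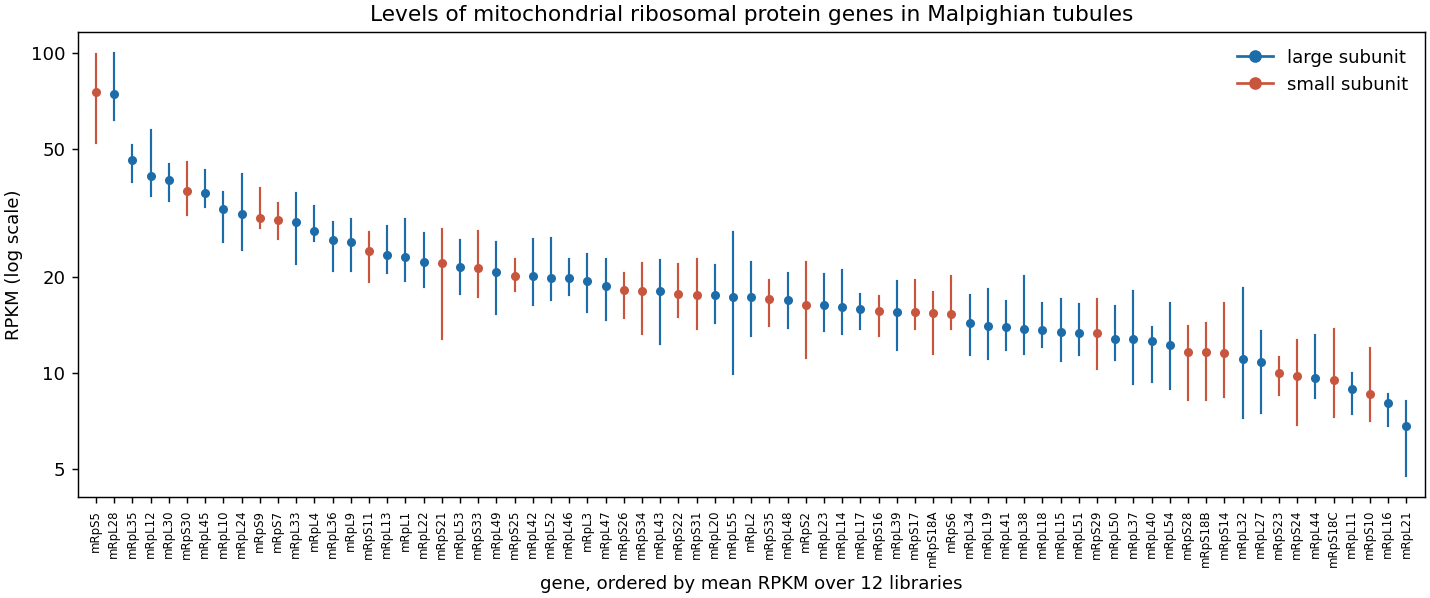
Mean RPKM (log scale) of each of the 73 genes over 12 libraries, in order of level; points are means, vertical lines run from the lowest to the highest library, and colours mark the subunit. mRpS5 and mRpL28 stand at 75.4 and 74.5 RPKM, and mRpL21 is lowest at 6.85 RPKM.

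Across the genotypes the 73 genes had a smaller median range than all tested genes together. The median range of genotype means was 0.39 on the log2 scale, against 0.60 over all tested genes. By edgeR's quasi-likelihood test for any difference among the 6 genotypes, 14 of 73 genes passed an adjusted p of 0.05, where 26.6% of all tested genes passed. The 4 genes with the lowest adjusted p were mRpS2 (0.00351), mRpL28 (0.00408), mRpS5 (0.00687) and mRpS14 (0.00869). This count was 9 without either SU58 library, where 14.4% of all tested genes passed, and 9 without either ZI418N library, where 16.8% passed.

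Within that small range the genotypes were ordered alike for many of the genes. SU26 had the highest mean level for 46 of 73 genes (24.6% of all tested genes) and ZI418N the lowest for 40 of 73 (21.5% of all tested genes). The genes highest in ZI418N numbered 4, namely mRpL21, mRpL35, mRpL39 and mRpS35, which are named because they were the exceptions. The summed level of the 73 genes was 1530.1 ± 151 CPM in SU26, 1424 ± 4.57 CPM in SU58 and 1202 ± 62.3 CPM in ZI418N (SD, n = 2 each). In the hybrids it was 1350.1 ± 35.7 CPM in SU26xSU58, 1258 ± 7.28 CPM in SU26xZI418N and 1367 ± 41.5 CPM in SU58xZI418N (SD, n = 2 each). Both ZI418N libraries, at 1158 and 1246 CPM, were below both libraries of each other parental line. The large subunit sum was highest in SU26 (966 ± 88.4 CPM, against 845 ± 6.06 in SU58 and 753 ± 41.8 in ZI418N). The small subunit sum was 564 ± 62.5 CPM in SU26, 579 ± 1.49 CPM in SU58 and 449 ± 20.5 CPM in ZI418N, so that the Swedish lines did not differ in it beyond their spread (SD, n = 2 for each sum).

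**Figure D2:**
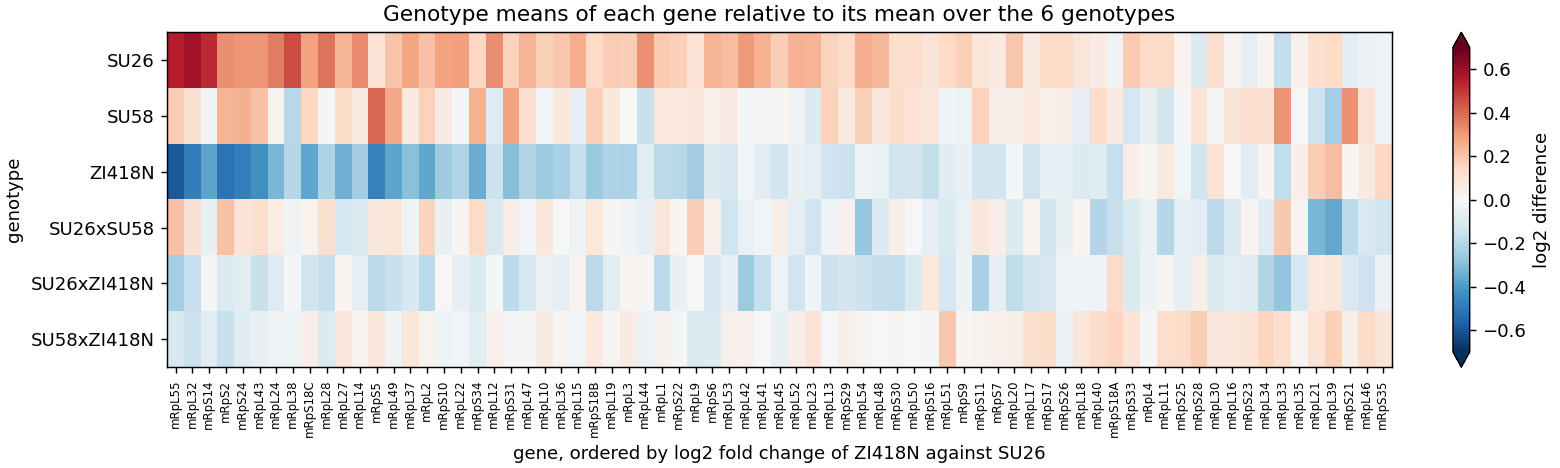
Genotype means of the 73 genes on the log2 scale, each relative to the gene's mean over the 6 genotypes (red higher, blue lower), with genes ordered from the most negative log2 fold change of ZI418N against SU26. SU26 is highest for 46 genes and ZI418N lowest for 40.

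The libraries of SU26 differed from each other. SU26 replicate 2 held the highest value of all 12 libraries for 50 of the 73 genes, and 63 of 73 were higher in it than in SU26 replicate 1, by a median of 0.21 on the log2 scale. Over all tested genes that median was 0.004, with 4717 of 9302 genes higher in replicate 2. The median deviation of the 73 genes from their own means over all libraries was 0.31 in SU26 replicate 2 and 0.05 in SU26 replicate 1. It was 0.06 and 0.05 in SU58, and -0.20 and -0.09 in ZI418N. It was -0.01 and -0.02 in SU26xSU58, below all libraries of both its parents, -0.10 and -0.07 in SU26xZI418N, and 0.003 and 0.06 in SU58xZI418N. Results against SU26 are therefore also given without its replicate 2.

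**Figure D3:**
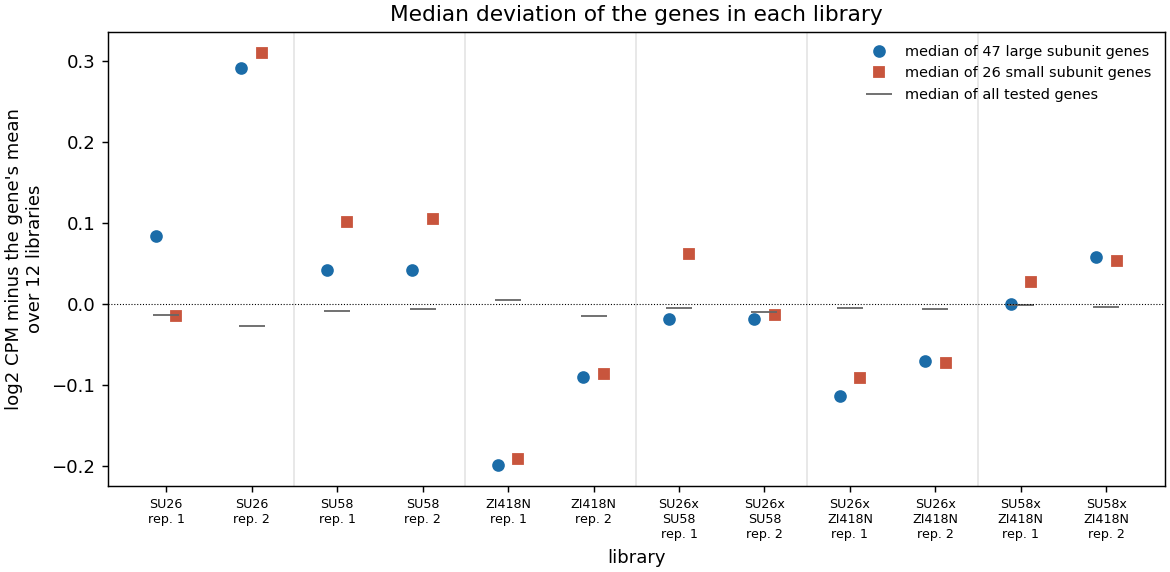
Median over genes of log2 CPM minus the gene's mean over the 12 libraries, for the large subunit, the small subunit and all tested genes, by library. SU26 replicate 2 is highest (0.31 for the small subunit, 0.29 for the large), both ZI418N libraries are below 0, and the median of all tested genes stays near 0.

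The comparison of ZI418N with SU26 asks how the genes differ between a line from Africa and one from northern Europe. Of the 73 genes, 26 were lower in ZI418N and 0 higher at an adjusted p of 0.05 (edgeR), where 13.1% of all tested genes were lower and 10.9% higher. The median log2 fold change was -0.30, against 0.01 over all tested genes, and 67 of 73 genes were below 0. At an unadjusted p under 0.05, 0 genes were higher, and DESeq2 also called 0 higher. Both ZI418N libraries were below both SU26 libraries for 50 of 73 genes (31.7% of all tested genes). The genes that fell came from both subunits: 19 of 47 large subunit genes (median -0.32) and 7 of 26 small subunit genes (median -0.26). They came from both classes of number as well, with 12 of 28 large and 4 of 14 small subunit genes of the bacterial series, and 7 of 19 large and 3 of 12 small subunit genes above it. On the chromosome arms, 9 of 21 genes fell on 3R, 4 of 12 on 2L, 6 of 17 on 3L, 6 of 11 on X and 1 of 12 on 2R. The share of all tested genes that fell on each arm is not given here, so no excess or lack on an arm can be read from these counts. Differences between subunits, classes or arms were not tested. Without SU26 replicate 2 the count was 13 (12 lower, 1 higher; median -0.20), and without ZI418N replicate 1 it was 11 (median -0.28), with 14.6% and 12.6% of all tested genes called in either direction, against 24% with all libraries. Cell markers moved with this comparison in both directions. The principal cell marker sum was higher in SU26 through Uro and salt (log2 fold changes of ZI418N against SU26 of -0.99 and -1.04), while Irk2 and ct of the same list were called higher in ZI418N (0.95 and 0.60, adjusted p = 0.000901 and 0.0242) and CapaR was not called (0.18). The stellate cell marker sum was at most 931.6 CPM in SU26 and at least 1374 CPM in ZI418N, and Prip (0.95), ClC-a (1.03), Drip (0.56) and Lkr (0.495) of that list were called higher in ZI418N. The part of these markers in the result was not tested.

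The largest falls were in large subunit genes. mRpL55, a mitochondria-specific protein whose gene (arm 3R, 19094394 to 19094905, minus strand, Ensembl BDGP6) is essential for fly development, measured 9.81 and 12.6 CPM in SU26, 8.42 and 8.87 CPM in SU58, and 4.54 and 5.65 CPM in ZI418N. In the hybrids it measured 9.09 and 8.56 CPM in SU26xSU58, 6.31 and 6.67 CPM in SU26xZI418N, and 6.33 and 7.85 CPM in SU58xZI418N. Every library with no ZI418N parent was above every library with one. mRpL55 was 2.20-fold lower in ZI418N than in SU26 (log2 fold change -1.14 ± 0.17 SE, adjusted p = 0.00189). It was 1.70-fold lower than in SU58 (-0.76 ± 0.17 SE, adjusted p = 0.017), a call lost without SU58 replicate 1, SU58 replicate 2 or ZI418N replicate 1 (highest adjusted p over the alternatives 0.12).

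mRpL32 (arm 3R, 31252872 to 31253686, plus strand), whose mammalian counterpart is cut by the m-AAA protease before it joins the ribosome, measured 9.75 and 13.02 CPM in SU26, 7.83 and 8.46 CPM in SU58, and 5.11 and 5.73 CPM in ZI418N. Its hybrid values were 8.35 and 7.95 CPM in SU26xSU58, 6.69 and 6.84 CPM in SU26xZI418N, and 6.35 and 7.29 CPM in SU58xZI418N. Again no library with a ZI418N parent reached the lowest one without. The gene was 2.10-fold lower in ZI418N than in SU26 (log2 fold change -1.07 ± 0.16 SE, adjusted p = 0.0017). Against SU58 it was 1.501-fold lower (-0.59 ± 0.16 SE, adjusted p = 0.0359), a call that 10 of 20 alternatives lost, among them the fits without SU58 replicate 1 or 2, ZI418N replicate 1 or 2, SU26xSU58 replicate 1 or 2, or SU58xZI418N replicate 2 (highest adjusted p 0.194).

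Among small subunit genes, mRpS14 and mRpS2 fell most. mRpS14 (arm X, 19479382 to 19480238, minus strand), the counterpart of a protein of the bacterial small subunit head, measured 12.8 and 13.2 CPM in SU26, 8.79 and 8.97 CPM in SU58, and 6.73 and 7.28 CPM in ZI418N. In SU26xSU58 it measured 9.42 and 8.05 CPM, in SU26xZI418N 8.41 and 9.56 CPM, and in SU58xZI418N 8.67 and 8.51 CPM. Both SU26 libraries stood above all others and both ZI418N libraries below all others. mRpS14 was 1.86-fold lower in ZI418N than in SU26 (log2 fold change -0.89 ± 0.12 SE, adjusted p = 0.00107). Its exons overlap those of Naa15-16 and CG32533 over 35.8% of their length, and neither partner passed the test in any pair of lines.

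mRpS2 (arm 2L, 4849439 to 4850419, minus strand), the counterpart of bacterial S2, measured 16.6 and 20.5 CPM in SU26, 17.2 and 17.7 CPM in SU58, and 10.3 and 10.5 CPM in ZI418N. It measured 16.9 and 17.3 CPM in SU26xSU58, 13.8 and 13.9 CPM in SU26xZI418N, and 13.1 and 13.5 CPM in SU58xZI418N. The libraries formed 3 groups that did not overlap: no ZI418N parent, 1 ZI418N parent, and ZI418N itself. The gene was 1.79-fold lower in ZI418N than in SU26 (log2 fold change -0.84 ± 0.11 SE, adjusted p = 0.000761) and 1.68-fold lower than in SU58 (-0.75 ± 0.11 SE, adjusted p = 0.00158). Both calls held under each of the 20 alternatives, with a highest adjusted p of 0.0156 and 0.0193.

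**Figure D4:**
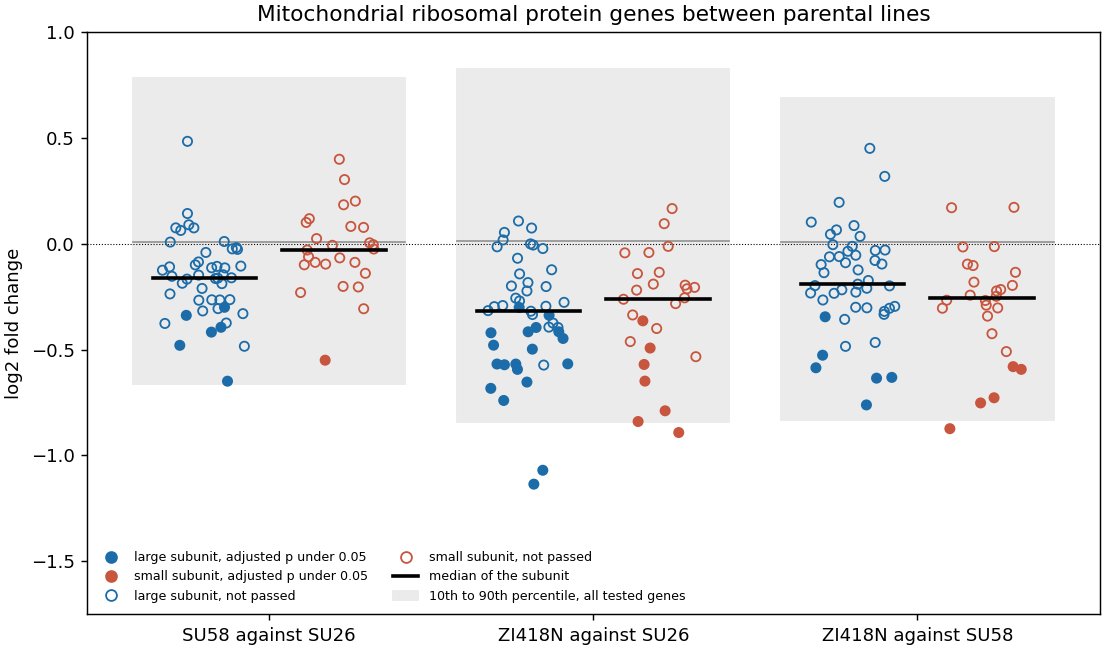
Log2 fold changes of the 73 genes in the 3 pairs of parental lines, by subunit; filled points have an adjusted p under 0.05, black bars are subunit medians, and grey boxes span the 10th to 90th percentile of all tested genes. All filled points lie below 0: 7 for SU58 against SU26, 26 for ZI418N against SU26 and 11 for ZI418N against SU58.

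ZI418N against SU58 is the other comparison of the Zambian with a Swedish line, and shares the ZI418N libraries with the one above. Here 11 of 73 genes were lower and 0 higher (9.33% of all tested genes were lower and 7.58% higher), 6 of the large and 5 of the small subunit. The median log2 fold change was -0.22, and 63 of 73 genes were below 0. At an unadjusted p under 0.05, 1 gene was higher, and DESeq2 called 0 higher. Both ZI418N libraries were below both SU58 libraries for 49 genes (33.1% of all tested genes). Of the 11 genes, 10 were also called against SU26. The remaining one, named for that reason, was mRpS31, a mitochondria-specific small subunit protein (log2 fold change -0.58 ± 0.15 SE, adjusted p = 0.03). Its call was lost without either SU58 library, without either ZI418N library and without both libraries with germ line or eggshell transcripts (highest adjusted p 0.179). The count of called genes was 5 without SU58 replicate 1, 3 without SU58 replicate 2, 4 without ZI418N replicate 1 and 7 without ZI418N replicate 2, where 7.51%, 7.28%, 8.84% and 8.63% of all tested genes were called in either direction, against 16.9% with all libraries. It was 5 without both libraries with germ line or eggshell transcripts (9.06% of all tested genes). mRpS2 and mRpS5 were called in all 5 of these fits.

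mRpS5 (arm 3L, 24537236 to 24543534, plus strand), the most abundant of the 73, fell most in this comparison. It measured 113.5 and 112 CPM in SU26, 142 and 137 CPM in SU58, and 74.7 and 77.4 CPM in ZI418N. Its hybrid values were 126 and 96.8 CPM in SU26xSU58, 88.6 and 96.2 CPM in SU26xZI418N, and 108 and 114 CPM in SU58xZI418N. SU58 was highest and ZI418N lowest, with no overlap, while the SU26xSU58 libraries spanned both SU26 values. mRpS5 was 1.83-fold lower in ZI418N than in SU58 (log2 fold change -0.87 ± 0.12 SE, adjusted p = 0.00106) and 1.49-fold lower than in SU26 (-0.57 ± 0.12 SE, adjusted p = 0.00711). The second call was lost without ZI418N replicate 1 (highest adjusted p over the alternatives 0.0669).

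mRpS24 (arm 3R, 24162829 to 24163545, minus strand), with a number above the bacterial series, measured 6.74 and 7.60 CPM in SU26, 6.54 and 7.22 CPM in SU58, and 4.17 and 4.13 CPM in ZI418N. It measured 6.51 and 5.87 CPM in SU26xSU58, 5.62 and 5.33 CPM in SU26xZI418N, and 5.18 and 5.68 CPM in SU58xZI418N. As for mRpS2, the hybrids with a ZI418N parent lay between ZI418N and the libraries without one. It was 1.66-fold lower in ZI418N than in SU58 (log2 fold change -0.73 ± 0.14 SE, adjusted p = 0.00805) and 1.73-fold lower than in SU26 (-0.79 ± 0.14 SE, adjusted p = 0.00412). The call against SU58 was lost without SU58 replicate 2 or ZI418N replicate 2 (highest adjusted p 0.0741). Of its exons, 55.3% overlap TBC1d7, which passed the test in no pair of lines.

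**Figure D5:**
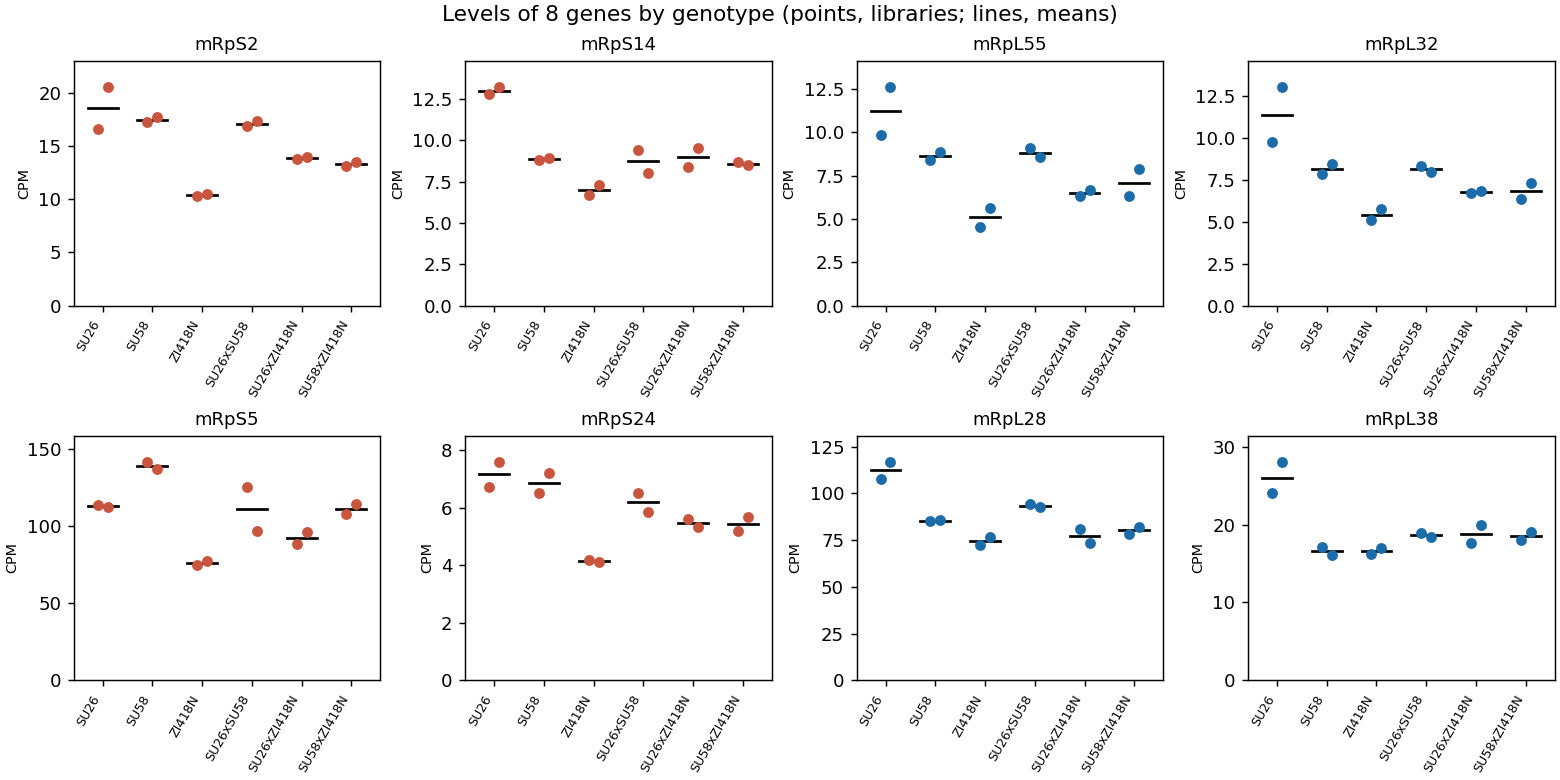
CPM of 8 genes in the 6 genotypes; points are the 2 libraries, lines their means, and each axis starts at 0. mRpS2, mRpL55, mRpL32 and mRpS24 are lowest in ZI418N with the ZI418N hybrids next, and mRpL38 is high in SU26 alone (24.0 and 28.1 CPM).

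SU58 and SU26 are both Swedish, and the comparison gives the difference between lines of one origin. Of the 73 genes, 7 were lower in SU58 and 0 higher, a share of 9.59% against 9.56% of all tested genes lower and 8.06% higher, so that the count is near the background. The median log2 fold change was -0.11, and 55 of 73 genes were below 0. At an unadjusted p under 0.05, 2 genes were higher, and DESeq2 called 0 higher. Both SU58 libraries were below both SU26 libraries for 31 genes (32% of all tested genes). The genes that fell were mRpS14 and 6 large subunit genes. The count was 1 without SU26 replicate 2 (median 0.01), without SU58 replicate 1 or without SU58 replicate 2, where 8.20%, 5.11% and 6.00% of all tested genes were called in either direction, against 17.6% with all libraries. It was 3 or 4 without either ZI418N or either SU58xZI418N library (14.4% to 14.8% of all tested genes); the gene called in each of these was mRpL38. Scaling by library totals alone turned the median to 0.03, with 2 genes lower and 2 higher, while moving the median of all tested genes from 0.009 to 0.15. The principal cell marker sum was at least 10010 CPM in SU26 and at most 4780 CPM in SU58. That difference was in Uro and salt (log2 fold changes of -1.27 and -1.46, both called), whereas CapaR (0.08), Irk2 (0.05) and ct (0.03) were not called. Of the stellate cell markers, Lkr was called higher in SU58 (0.55). The rest of that list went both ways. ClC-a lay above its SU26 values in both SU58 libraries, Drip and SecCl lay below theirs, and tsh and Prip overlapped. The stellate cell sum ran from 945.4 to 951 CPM for SU58, against 876.4 to 931.6 CPM for SU26. The part of these markers in the result was not tested.

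mRpL38 (arm X, 14226289 to 14227949, plus strand), a mitochondria-specific large subunit protein, measured 24.0 and 28.1 CPM in SU26, 17.2 and 16.1 CPM in SU58, and 16.2 and 17.0 CPM in ZI418N. Its hybrids measured 19.0 and 18.4 CPM in SU26xSU58, 17.6 and 20.0 CPM in SU26xZI418N, and 18.1 and 19.1 CPM in SU58xZI418N. Both SU26 libraries were above all others, and those of SU58 and ZI418N overlapped. It was 1.57-fold lower in SU58 than in SU26 (log2 fold change -0.65 ± 0.11 SE, adjusted p = 0.00402) and also 1.57-fold lower in ZI418N than in SU26 (-0.65 ± 0.11 SE, adjusted p = 0.00251). Between ZI418N and SU58 the difference was -0.004 ± 0.11 SE.

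mRpL28 (arm 2L, 4973976 to 4975316, plus strand) measured 108 and 117 CPM in SU26, 85.1 and 85.7 CPM in SU58, and 72.2 and 76.6 CPM in ZI418N. It measured 94.3 and 92.5 CPM in SU26xSU58, 81.0 and 73.7 CPM in SU26xZI418N, and 78.5 and 82.2 CPM in SU58xZI418N. SU26 was above all other libraries, and the parental lines did not overlap. The gene was 1.51-fold lower in ZI418N than in SU26 (log2 fold change -0.59 ± 0.08 SE, adjusted p = 0.000907), which held under all 20 alternatives, and 1.31-fold lower in SU58 (-0.39 ± 0.08 SE, adjusted p = 0.0105), which was lost without SU26 replicate 2 or either SU58 library (highest adjusted p 0.219). For mRpS14 the log2 fold change of SU58 against SU26 was -0.55 ± 0.12 SE (adjusted p = 0.0155), lost without the same libraries and with scaling by library totals (highest adjusted p 0.192).

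mRpL12 belongs to the stalk that recruits translation factors to the ribosome, and in the fly it has been linked to growth. It measured 33.5 and 42.6 CPM in SU26, 28.7 and 28.3 CPM in SU58, 26.4 and 28.2 CPM in ZI418N, and 27.8 to 31.1 CPM in the hybrids. mRpL44, which has the fold of an RNase III enzyme in its mammalian counterpart, measured 12.1 and 14.8 CPM in SU26, 9.39 and 9.89 CPM in SU58, 9.90 and 10.6 CPM in ZI418N, and 9.42 to 11.5 CPM in the hybrids. For both genes SU26 lay above every other library. Against SU26, SU58 was lower by a log2 fold change of -0.42 ± 0.11 SE for mRpL12 (adjusted p = 0.033) and -0.48 ± 0.14 SE for mRpL44 (adjusted p = 0.048). The calls of mRpL12 and mRpL44 were lost under 10 and 14 of 20 alternatives, among them the fits without SU26 replicate 2, SU58 replicate 1 or 2, ZI418N replicate 1, or SU58xZI418N replicate 1 or 2 (highest adjusted p 0.396 and 0.479).

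Across the 3 pairs, 28 of 73 genes were called in at least 1 and 45 in none. The pairs share lines, so that their calls are not independent. Only mRpL24, the counterpart of a bacterial protein that acts early in large subunit assembly, was called in all 3, and is named for that reason. It measured 33.1 and 36.8 CPM in SU26, 27.4 and 27.9 CPM in SU58, and 21.2 and 22.3 CPM in ZI418N, in steps that did not overlap. Its log2 fold change was -0.34 ± 0.09 SE for SU58 against SU26 (adjusted p = 0.0376), -0.68 ± 0.09 SE for ZI418N against SU26 (adjusted p = 0.0011) and -0.35 ± 0.09 SE for ZI418N against SU58 (adjusted p = 0.0357). The call of SU58 against SU26 was lost under 12 of 20 alternatives, among them library totals, no filter on low counts, and the fits without SU26 replicate 2 or any 1 library of SU58, ZI418N or SU58xZI418N (highest adjusted p 0.42). That of ZI418N against SU58 was lost under 9 of 20, among them the fits without any 1 library of SU58, ZI418N or SU58xZI418N (highest adjusted p 0.188), and that against SU26 under 0 of 20.

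Genes outside the general direction did not pass the test with all libraries and TMM scaling. mRpS5 was higher in SU58 than in SU26 by a log2 fold change of 0.30 ± 0.12 SE (adjusted p = 0.106), and 4 of 20 alternatives called it: library totals, only the libraries compared, and the fits without SU26xSU58 replicate 1 or 2 (lowest adjusted p 0.0275). mRpL39, a mitochondria-specific large subunit protein, measured 16.7 and 21.8 CPM in SU26, 14.9 and 14.8 CPM in SU58, and 18.5 and 22.1 CPM in ZI418N, a log2 fold change of 0.45 ± 0.16 SE for ZI418N against SU58 (adjusted p = 0.0902; called, at 0.0304, in the fit of only the libraries compared). mRpL33 measured 10.5 and 7.63 CPM in SU26, 12.6 and 12.7 CPM in SU58, and 9.42 and 8.70 CPM in ZI418N, and had the largest positive log2 fold change of SU58 against SU26, at 0.48 ± 0.15 SE (adjusted p = 0.0583; called, at 0.0347, with scaling by library totals, and, at 0.0174, without SU26 replicate 1). mRpL39 and mRpL33 were chosen after their values were seen. mRpL35 was the steadiest of the abundant genes named here, with 29.6 to 38.7 CPM over all libraries and log2 fold changes between -0.03 and 0.04 in the 3 pairs.

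Exons shared with another gene touch some of these counts, since the sources used here do not say whether counting used strand. In the Ensembl annotation 30 of the 73 genes overlap no exon of another gene and 8 do so over at least 20% of their exon length. mRpL53 lies wholly within exons of AGO1 and CG33155. Among the 65 genes without such overlap, 24 were lower in ZI418N than in SU26 (median -0.32), 10 were lower in ZI418N than in SU58 and 6 were lower in SU58 than in SU26.

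The 3 F1 hybrids were compared with the mean of their parents on the log2 scale, which asks whether the hybrid departs from additivity. No gene of the 73 passed in any hybrid by edgeR, where 0.108% of all tested genes passed in SU26xSU58, 5% in SU26xZI418N and 0.387% in SU58xZI418N, nor for all hybrids against all parental lines (0.849%). The share for SU26xZI418N was not stable: it was 18.4% of all tested genes without its replicate 1, 0.262% without its replicate 2, which held germ line transcripts, and 0.311% to 0.872% without any 1 of the other libraries. Of the 73 genes, 1 was called without replicate 1 and 0 in each of the other 11 fits. At an unadjusted p under 0.05, 7 of 73 genes were below the parental mean in SU26xSU58 and 0 above (3.12% and 2.98% of all tested genes). These numbers were 5 below and 0 above in SU26xZI418N (11.2% and 17.1% of all tested genes), 0 below and 1 above in SU58xZI418N (1.6% and 3.6%), and 3 below and 0 above for all hybrids against all parental lines (7.07% and 7.16%). DESeq2 called 0 genes in SU26xSU58, in SU58xZI418N and for all hybrids together, and 2 genes lower in SU26xZI418N: mRpL28 (log2 fold change -0.25, adjusted p = 0.0215) and mRpL42 (-0.40, adjusted p = 0.0365). With edgeR their adjusted p was 0.0695 and 0.0591, and mRpL28 was called without SU26xZI418N replicate 1 (adjusted p = 0.0403).

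The position of the hybrids between their parents differed from cross to cross, as a description of means. In SU26xSU58, 53 of 73 genes were below both parents (22.1% of all tested genes), 19 were between (58.3%) and 1, mRpL9, was above (19.6%). The median log2 difference from the parental mean was -0.14, with 69 of 73 genes below 0. Without SU26 replicate 2, 37 genes were below both parents (23.4% of all tested genes), 31 between (56.1%) and 5 above (20.5%), with a median difference of -0.09. In the same cross 82 of 85 cytosolic ribosomal protein genes and all 13 genes of the mitochondrial genome were below 0 as well (medians -0.09 and -0.22), with 0 called in either list by edgeR or DESeq2 and 0 at an unadjusted p under 0.05. Both of these rested on SU26xSU58 replicate 2: without it 0 of 13 mitochondrial genome genes were below 0 (median 0.19) and 41 of 85 cytosolic genes (median 0.001). The 73 genes kept a median of -0.11 without that library. The mitochondrial genome sum was 63381 CPM in SU26xSU58 replicate 1 and 38544 CPM in replicate 2, against 51496 to 72429 CPM in the parents. In SU26xZI418N, 44 genes were between the parents, 27 below both and 2, mRpS18A and mRpS28, above (median -0.10, turning to 0.02 with scaling by library totals, which moved the median of all tested genes from 0.02 to 0.14). Without SU26 replicate 2 the median was -0.04, with 22 genes below both parents (25.2% of all tested genes), 45 between (42.4%) and 6 above (32.3%). In SU58xZI418N, 50 genes were between (57.3% of all tested genes), 23 above both (20.2%) and 0 below (22.5%), with a median of 0.07. That median was 0.03 without SU58xZI418N replicate 2, 0.04 without ZI418N replicate 1 and 0.12 without ZI418N replicate 2. Where the parents themselves differed by test, the hybrid mean lay between them for all 26 genes in SU26xZI418N (81.6% of all genes that differed), for all 11 in SU58xZI418N (95%) and for 5 of 7 in SU26xSU58 (92.4%). Differences between the crosses were not tested.

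The other genes of mitochondrial protein synthesis were taken from lists. The small subunit genes with other symbols, tko and bonsai, were not called in ZI418N against SU26. The log2 fold change was -0.33 ± 0.11 SE for tko (adjusted p = 0.0647) and -0.24 ± 0.17 SE for bonsai (adjusted p = 0.333). These values lay on either side of the median of the mRpL and mRpS genes in that comparison (-0.30). Of 13 translation factor genes, 3 fell and 0 rose in ZI418N against SU26 (13.1% of all tested genes fell and 10.9% rose). In ZI418N, 4 were lower than in SU58 (9.33% of all tested genes). mIF2, which starts translation in mitochondria, had log2 fold changes of -0.75 ± 0.11 SE against SU26 (adjusted p = 0.00137) and -1.07 ± 0.11 SE against SU58 (adjusted p = 0.000214). The elongation factor genes mEFTu1 and mEFTu2 fell by 0.51 and 0.63 against SU26 on the log2 scale (adjusted p = 0.00882 and 0.00233) and by 0.42 and 0.35 against SU58 (adjusted p = 0.0291 and 0.0446). The mEFTu1 call against SU26 was lost without SU26 replicate 2 or ZI418N replicate 1, and both calls against SU58 without any 1 library of SU58 or ZI418N (highest adjusted p 0.253). Of 15 mitochondrial aminoacyl-tRNA synthetase genes, which charge the tRNAs, 2 were lower in ZI418N than in SU26 (ArgRS-m and AspRS-m) and 1 higher (IleRS-m), and each of these calls was lost without at least 1 of the libraries compared. Of 18 genes for mitochondrial transcription and RNA handling 2 were lower and 2 higher, and of 7 for mitochondrial DNA maintenance 1 was lower and 1 higher.

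Protein import is the route by which all 73 proteins reach the mitochondrion. Of its 16 genes, 9 fell and 0 rose in ZI418N against SU26 (median -0.50), where 13.1% of all tested genes fell. In ZI418N against SU58, 3 were lower (9.33% of all tested genes), and in SU58 against SU26, 4 were lower (9.56%). Scaling by library totals gave 5, 4 and 2. The count against SU26 was 3 without SU26 replicate 2 (median -0.29) or without ZI418N replicate 1, 6 without either SU58 library, and 13 without SU26 replicate 1. Fewer of all tested genes were also called without SU26 replicate 2 or without ZI418N replicate 1, as given above. For the fits without a SU58 library or SU26 replicate 1 that share is not given here. These counts alone therefore cannot show a change in import genes. Tom7, a small subunit of the outer membrane translocase, fell by 0.83 on the log2 scale in ZI418N against SU26 (adjusted p = 0.000338), and Tim23, the channel of the inner membrane, fell by 0.49 (adjusted p = 0.00353). The 13 protein-coding genes of the mitochondrial genome, whose transcripts these ribosomes translate, summed to 38544 to 72429 CPM. All 13 were below 0 in ZI418N against SU26 (median -0.54), and 1, mt:ATPase8, passed the test (log2 fold change -1.21 ± 0.38 SE, adjusted p = 0.0447), a call lost under 11 of 20 alternatives, library totals and most fits that leave out 1 library among them, while DESeq2 called 4 genes. All 13 were also below 0 in SU58 against SU26 (median -0.40, or 11 of 13 and -0.27 with library totals), with 0 called by edgeR, 3 at an unadjusted p under 0.05 and 2 called by DESeq2. The sum was 72429 and 57824 CPM in SU26 replicates 1 and 2, 53772 and 51496 CPM in SU58, and 46820 and 53725 CPM in ZI418N. SU26 replicate 2 was below both SU58 libraries for mt:CoII, mt:Cyt-b, mt:ND3 and mt:ND4. It was between them for mt:ND4L and mt:ND6, and above both for the other genes. Of 85 tested genes of the cytosolic ribosome, 8 were lower and 1 higher in ZI418N than in SU26 (median -0.14), and 6 were lower and 0 higher in ZI418N than in SU58 (median -0.18). With library totals these counts were 4 and 2, and 18 and 0. Of 7 regulators linked in the fly to ribosomal or mitochondrial genes, crc was lower in ZI418N than in SU26 (-0.51) and Mnt (0.63) and Max (0.29) were higher, the last of these a call lost under 13 of 20 alternatives and that of Mnt without SU26 replicate 2 or ZI418N replicate 1. On the log2 scale crc was also lower in SU58 than in SU26 (-0.55), and it was not called between ZI418N and SU58 (0.04). Against SU58, ZI418N was higher for Myc (0.76), which was not called against SU26, and for Mnt (0.63). That call of Mnt was lost under 6 of 20 alternatives. Differences between these lists and the 73 genes were not tested.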

How the data were processed

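The authors deposited raw counts per gene for 12 libraries, per the file headers with a FlyBase identifier, a CG number, a chromosome arm and a length. Per the labels' protocols, poly-A RNA was fragmented and sequenced as paired reads of 125 bases. The aligner, counting tool, genome build and strand setting were not given in the sources used here. Symbols, coordinates and exon overlaps come from the reference tables and Ensembl BDGP6, whose arm equals that of the files for all 73 genes. The counts were filtered with filterByExpr, scaled with TMM factors and fitted with 1 mean per genotype (edgeR 4.0.16, R 4.3.3; quasi-likelihood test, 6 residual degrees of freedom, Benjamini-Hochberg adjustment over 9302 genes at 0.05). The fit was run on simulated counts with the same spread for all genes, smaller than the common biological coefficient of variation here (22.5%). That run therefore does not measure the error rate in these data. RPKM uses the deposited lengths. Libraries of a genotype were checked not to be copies (mean chi-square per gene 12.9 to 116). Alternatives were RLE factors, library totals, DESeq2 1.42.0, no filter, a replicate term, only the libraries compared, and libraries left out; leaving out 3 libraries together was chosen after seeing the data. Genes named in every library were the 4 largest called rises and falls per comparison, the 4 lowest p among all genotypes, and the 3 highest and 3 lowest levels. The members and lists were chosen with earlier results of these data known.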

Additional observations from a re-analysis of the deposited data

How the results depend on the processing

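With RLE factors each count of called genes was within 1.5 times the count reported. Of all tested genes, the fit with TMM factors called 17.6% for SU58 against SU26 and 24% for ZI418N against SU26. It called 16.9% for ZI418N against SU58 and 5% for SU26xZI418N. Library totals alone gave 4 for SU58 against SU26 (18.8% of all tested genes) and 17 for ZI418N against SU26 (24.0%). For ZI418N against SU26 they moved the median log2 fold change of all tested genes from 0.01 to 0.11. DESeq2 gave 2 for SU26xZI418N (13.9% of all tested genes). No filter on low counts gave 4 for SU58 against SU26 (11.5% of all genes tested in that fit). A fit of only the libraries compared gave 4 for SU58 against SU26, 15 for ZI418N against SU26 and 20 (19 lower, 1 higher) for ZI418N against SU58. In the same order, these fits called 21.3%, 20.0% and 27.7% of all genes tested in them. Without the 2 libraries with germ line or eggshell transcripts the counts were 1 for SU58 against SU26, 20 for ZI418N against SU26 and 5 for ZI418N against SU58. Without these and SU26 replicate 2, which was chosen after seeing the data, they were 0, 9 and 8, and 1 for any difference among genotypes (mRpS2). Leaving out 1 library at a time gave 9 to 17 for any difference, 1 to 8 for SU58 against SU26, 11 to 31 for ZI418N against SU26, 3 to 12 for ZI418N against SU58, 0 to 1 for SU26xZI418N, and 0 for the other hybrids and for all hybrids against all parental lines. The cause of these changes was not tested, beyond the fewer libraries in the fits that leave some out. For those fits the share of all tested genes called is not given in this paragraph. Their counts alone cannot separate a change in these genes from a change in all tested genes. Of 840 named values and alternatives, 771 kept their side of the threshold, 59 lost a call, 10 gained one and 0 reversed the direction of a call. The 771 include values called in neither fit, whose sign could change. For mRpL16 in SU58 against SU26 the log2 fold change ran from -0.01 to 0.22. The replicate numbers did not pair the libraries across all genotypes: in 15 pairs of genotypes the correlation of deviations ran from -0.22 to 0.32, with 4 over 0.1. Whether some of the libraries shared a batch was not tested. With the replicate number as a block the counts were 13 for any difference, 7, 27 and 11 for the pairs of lines, and 0 for the hybrids. Depth limits little here, since the lowest count was 131; the spread between 2 libraries sets the precision.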
